A study of Oryza sativa Japonica Group with 17 samples.

Results

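Long H3K27me3 domains of rice leaves are H3K27me3 peaks of at least 4000 bp that share no base with an H3K9me2 peak. They numbered 1507 of the 13385 H3K27me3 peaks that the authors called, or 11.3%, and covered 8.36 Mb. The members were chosen by peak length and by the absence of H3K9me2, so both properties are a description here and not a result. The H3K27me3 library came from Cr-DJ, material of the variety DongJin, and the H3K9me2 library from ZH11, another variety. Lists of 24-nt small RNAs came from osdrm2, a mutant in the DongJin background, and from Cr-DJ without that mutation. The series has 17 samples, and these 4 libraries, all from leaves of 12-day-old seedlings grown on hormone-free medium, are single libraries of their kind. There was therefore no replicate check and no test. Every interval given covers counting error only, or for medians the spread among peaks, and none covers variation between libraries.

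H3K27me3 is written by Polycomb repressive complex 2 and marks genes that are kept silent in a given tissue. In plants it commonly spreads along whole gene bodies and can reach over neighbouring genes. H3K9me2 marks silent transposons and heterochromatin, where it is maintained together with DNA methylation. The 24-nt small RNAs guide the methyltransferase DRM2 to its targets, which in rice often are short transposons near genes.

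Long domains held 29.7% of all bases in H3K27me3 peaks and 37.2% of all reads in them. They covered 2.24% of the 373 Mb spanned by the coordinates of the 12 chromosomes and held 10.3% of the 19709518 reads of the library. A further 108 peaks reached 4000 bp but met an H3K9me2 peak and are no members. These were 6.69% of the 1615 peaks of that length, whereas 297 of 11770 peaks under 4000 bp (2.52%) met H3K9me2. The comparison groups were the 11473 shorter peaks without H3K9me2, and among them the 3143 peaks of 2 to 4 kb (at least 2000 bp and under 4000 bp), which are nearest in length. The labels and file headers name no genome build, and genes were not analysed here, so domains are given by position alone.

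The median length of a domain was 5261 bp, with quartiles of 4576 and 6322 bp. Of the 1507 domains, 886 reached 5 kb, 485 reached 6 kb, 221 reached 7 kb, 57 reached 8 kb and 1 reached 9 kb. At the limit, domains of 4000 bp (chr3:14584398-14588397, 219 reads per kb) and 4001 bp (chr2:10141492-10145492, 208 reads per kb) were members. The nearest peaks under the limit, chr9:14143533-14147531 (278 reads per kb) and chr11:21680932-21684929 (214 reads per kb), were not. The limit thus cuts through a continuous range of lengths and densities.

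Long domains were denser in H3K27me3 reads than shorter peaks. Their median was 231 reads per kb (quartiles 199 and 273), against 141 reads per kb in shorter peaks (114 and 182) and 184 reads per kb in peaks of 2 to 4 kb (155 and 222). The whole sequence averaged 52.8 reads per kb. Within the domains the median was higher in each longer class. The medians were 214 reads per kb in 621 domains of 4 to 5 kb, 234 in 401 domains of 5 to 6 kb, 242 in 264 domains of 6 to 7 kb, 264 in 164 domains of 7 to 8 kb and 278 in 57 domains of 8 kb or more. Across the 1507 domains, length and reads per kb had a Spearman coefficient of 0.31, and both values come from the same peak calls.

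The authors' fold enrichment, a ratio of reads to local background around the summit, ran the other way. Its median was 3.20 in long domains (range 1.98 to 5.81), against 4.15 in shorter peaks and 4.06 in peaks of 2 to 4 kb. By length class the median fold stood at 3.55, 3.20, 2.99, 2.70 and 2.59 from 4 to 5 kb up to 8 kb or more. The peak score, which is larger for smaller p-values and stands at 50 at the authors' limit of 1e-05, was lower in the longer classes of domains, although its median was higher in long domains, 349, than in shorter peaks, 209, and stood at 422 in peaks of 2 to 4 kb. The median score was 456 in domains of 4 to 5 kb and 80.3 in those of 8 kb or more, and 38 of the 57 domains in the longest class (66.7%) scored under 100. Such scores were not particular to that class, since 2003 of 3206 peaks under 1 kb (62.5%) had them too. In the length classes between these, the share ran from 4.83% to 22.6%. The class of 8 kb or more thus had the highest median density and the lowest median score of the 5 classes.

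**Figure D1:**
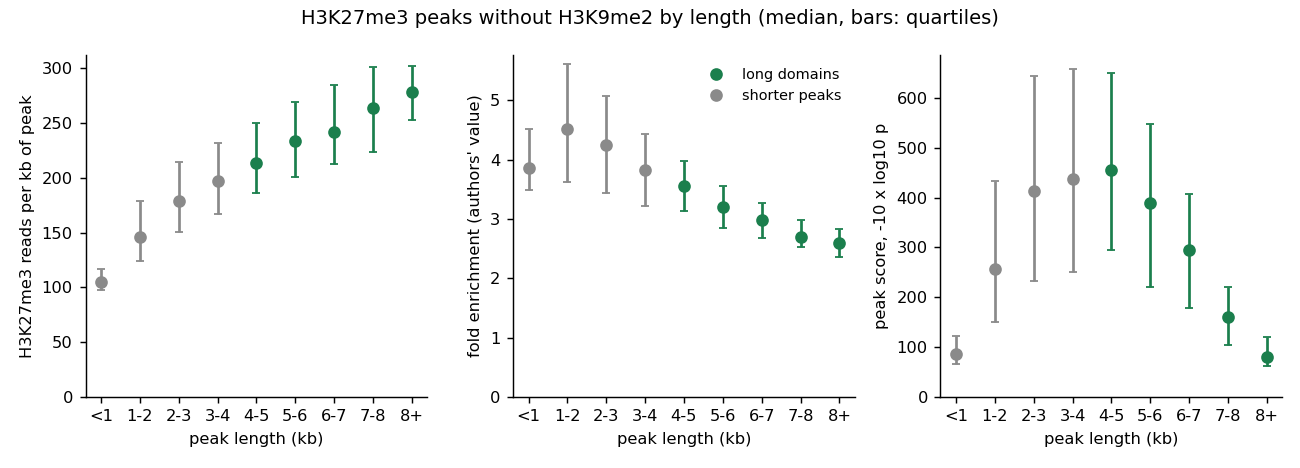
Reads per kb of peak, the authors' fold enrichment and the peak score (vertical axes) for H3K27me3 peaks without H3K9me2, by length in kb (horizontal axes); points are medians, bars quartiles, grey shorter peaks and green long domains. Reads per kb are higher in each longer class, up to 278 at 8 kb or more, whereas the score is highest at 4 to 5 kb (456) and stands at 80.3 at 8 kb or more.

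No H3K27me3 peak was longer than 9110 bp and no H3K9me2 peak longer than 8704 bp. Both lists were called without a control library, with local background taken from the same library over a range of 10000 bp according to the file headers. With such a range, reads of a long domain count in its own background. The part of this setting in the lengths, folds and scores was not tested. Joining neighbouring H3K27me3 peaks over gaps of at most 1 kb gave 1744 regions of at least 4000 bp without H3K9me2, of which 338 were made of several peaks and 253 held no single long domain. Of the joined regions, 37 were longer than 9110 bp and 21 longer than 10000 bp. The longest spanned 15436 bp at chr9:17583921-17599356, made of 2 peaks with 252 reads per kb over the whole span. The next was 14657 bp long at chr11:712202-726858, with 219 reads per kb.

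The 10 longest domains measured 8655 to 9050 bp and lay on 7 chromosomes. The longest, at chr9:21460644-21469693, held 2428 reads, or 268 per kb, at a fold of 2.36 and a score of 51.92. Next were a domain at chr3:15775610-15784491 (8882 bp, 353 reads per kb, fold 2.15) and one at chr11:1264868-1273749 (8882 bp, 301 reads per kb, fold 2.67). Chromosome 8 held the fourth, from 98436 to 107194 (8759 bp, 299 reads per kb), close to the start of the chromosome. The fifth lay at chr3:31746481-31755217 (8737 bp, 272 reads per kb) and the sixth at chr8:21746060-21754795 (8736 bp, 235 reads per kb). All 10 scored between 51.92 and 83.28, all under 100 and near the limit of 50, with folds of 2.03 to 2.90. Their read densities of 235 to 353 per kb nevertheless all exceeded the median of the long domains, 231.

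The remaining 4 of these 10 were at chr9:9452652-9461380 (8729 bp), at chr1:33307393-33316089 (8697 bp), at chr10:18201108-18209770 (8663 bp) and at chr6:10196769-10205423 (8655 bp). On the other chromosomes the longest domain measured 8594 bp (chr12:19777775-19786368), 8538 bp (chr5:12305565-12314102), 8480 bp (chr7:20394340-20402819), 8469 bp (chr4:23386652-23395120) and 8151 bp (chr2:3509544-3517694). The longest domain of each chromosome thus fell in the narrow range of 8151 to 9050 bp. The domain on chromosome 5 was also isolated. Its nearest H3K27me3 peak of any length was 158078 bp away and its nearest long domain 943738 bp away, while an H3K9me2 peak lay 1427 bp from its edge.

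The most read-dense domains, of 4059 to 5593 bp, were not among the longest. They lay at chr7:460722-466063 (435 reads per kb, 5342 bp), at chr8:745590-749648 (431 reads per kb, 4059 bp) and at chr10:2335660-2341252 (421 reads per kb, 5593 bp). Their scores were 596, 1766 and 1391. The domain on chromosome 8 had the highest score of all long domains. The lowest densities were 124 reads per kb at chr8:3566593-3570695, 127 at chr7:24586644-24591642 and 128 at chr1:42183951-42187996. Every domain was above the sequence average of 52.8 reads per kb, which peak calling selects for. Shorter peaks were also all above it, with a lowest value of 79.2.

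The highest folds belonged to domains near the length limit, at chr4:13844791-13849108 (5.81, 4318 bp), at chr3:16022811-16026898 (5.75, 4088 bp) and at chr7:14618999-14623288 (5.60, 4290 bp). The lowest folds were 1.98 at chr1:40317224-40325169, 1.99 at chr5:25693972-25699204 and 2.01 at chr3:8455179-8462700. The domain with the fold of 2.01 held 384 reads per kb, more than each of the 3 domains with the highest folds (206, 226 and 258). A low fold among long domains therefore did not go with few reads. Across the 1507 domains, reads per kb and fold had a Spearman coefficient of -0.15.

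The summit, the point of highest read pile-up, lay at a median of 34.4% of the domain length from the nearer edge (quartiles 24.4 and 42.1%), a measure that cannot exceed 50%. This value was 38.0% in shorter peaks and 34.1% in peaks of 2 to 4 kb.

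Long domains occurred on all 12 chromosomes, with 1 more on unanchored sequence. Per Mb, chromosome 1 had the most, 4.97 (215 domains), followed by chromosome 9 with 4.39 (101 domains). Chromosome 12 had the fewest per Mb, 88 domains or 3.20, and chromosome 8 had 101 domains or 3.55 per Mb. As a share of all H3K27me3 peaks on a chromosome, long domains made up between 9.38% (chromosome 12) and 12.9% (chromosome 1). The median domain length by chromosome ran from 5077 bp on chromosome 3 to 5420 bp on chromosome 2, and the median density from 226 reads per kb on chromosome 9 to 250 on chromosome 7. Chromosomes therefore differed more in the number of their domains than in the length or density of a domain.

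In 368 windows of 1 Mb, the number of domains ran from 0 to 12, with a median of 4 and quartiles of 2 and 5. There were 21 windows without a domain and 12 windows with at least 10. The largest cover was 72.8 kb in 12 domains at chr11:18000001-19000000. Next came 66.8 kb in 11 domains at chr3:26000001-27000000, and 66.4 kb in 11 domains at chr1:6000001-7000000. The numbers of domains and of shorter peaks per window had a Spearman coefficient of 0.30 over the 368 windows, which share the library.

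**Figure D2:**
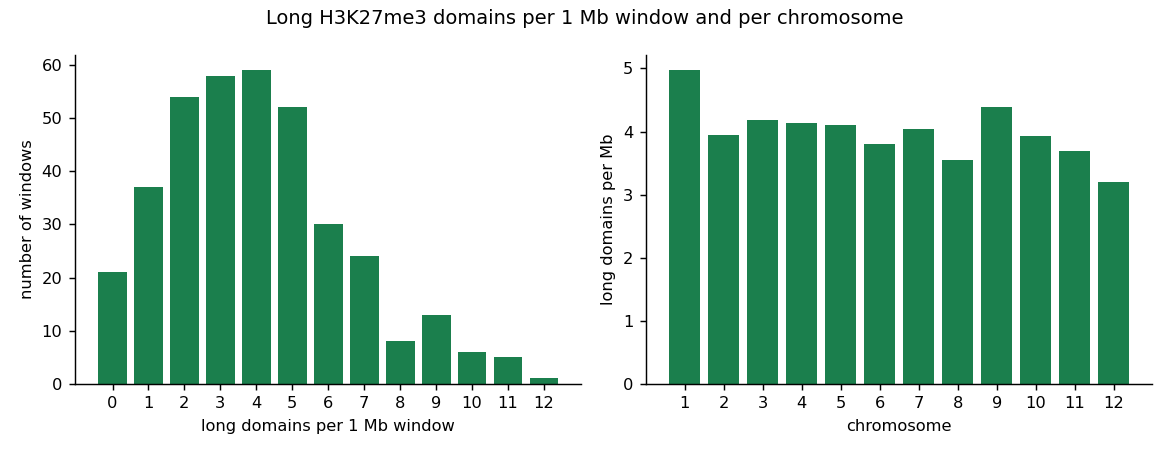
Left, number of 1 Mb windows (vertical axis) by the number of long H3K27me3 domains they hold (horizontal axis); right, long domains per Mb (vertical axis) on each chromosome (horizontal axis). Windows hold 0 to 12 domains with a median of 4, and chromosomes lie between 3.20 (chromosome 12) and 4.97 (chromosome 1) domains per Mb.

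The 3 longest stretches between successive domains were 3.53 Mb at chr7:11093270-14618998, 3.06 Mb at chr5:9242907-12305564 and 2.48 Mb at chr6:15453927-17930524. They were not free of the mark, since 78, 33 and 74 shorter peaks lay in them. H3K9me2 peaks covered 13.1%, 8.88% and 12.0% of them. At the chromosome ends, the first Mb from an end held 115 domains, or 4.79 per Mb, and sequence over 5 Mb from an end held 3.94 per Mb. Shorter peaks stood at 30.8 and 29.7 per Mb in the same zones. Of the H3K27me3 peaks that met no H3K9me2 peak, domains thus made up 13.5% in the first Mb and 11.7% beyond 5 Mb. Between these zones the share was 10.3% at 1 to 2 Mb and 11.2% at 2 to 5 Mb, without a steady order.

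Domains also lay close to each other. Another long domain stood within 50 kb of 683 of 1507 domains (45.3%, Wilson 95% interval 42.8 to 47.8%), against 3965 of 11473 shorter peaks (34.6%, 33.7 to 35.4%) and 1271 of 3143 peaks of 2 to 4 kb (40.4%, 38.7 to 42.2%). Over all H3K27me3 peaks the share was 35.9%. Nearness between long domains is mutual, so their interval, which counts each domain as independent, is too narrow. The median gap to the nearest long domain was 60450 bp for long domains, 86780 bp for shorter peaks and 73732 bp for peaks of 2 to 4 kb. Within 20 kb the shares were 24.9%, 16.2% and 22.1%, and within 100 kb 66.2%, 54.8% and 59.6%. The longer the peak class, the nearer was a long domain at each of these distances, with the peaks of 2 to 4 kb also counted among the shorter ones.

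This was not so for H3K27me3 peaks of any length. Another such peak lay within 10 kb of 932 long domains (61.8%), 7171 shorter peaks (62.5%) and 2059 peaks of 2 to 4 kb (65.5%), with 62.4% over all H3K27me3 peaks, so the members' share stood near the background. Within 1 kb the shares were farther apart, with 101 long domains (6.70%, interval 5.55 to 8.08%) against 1604 shorter peaks (14.0%, 13.4 to 14.6%). Peaks of 2 to 4 kb stood at 13.4%, close to all shorter peaks. No share over all H3K27me3 peaks was computed at 1 kb. Peak length and gaps come from the same peak calls, so the choice by length may itself bear on this share, which was not tested.

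**Figure D3:**
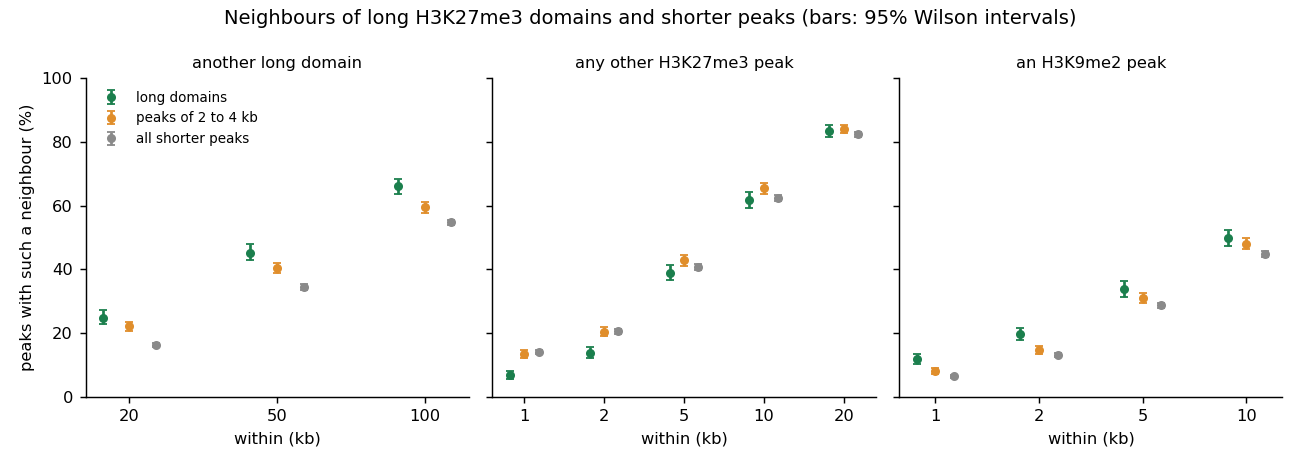
Percent of peaks (vertical axis) that have another long domain, any other H3K27me3 peak or an H3K9me2 peak within the distance in kb on the horizontal axis, for long domains (green), peaks of 2 to 4 kb (orange) and all shorter peaks (grey), with Wilson 95% intervals. Within 50 kb, 45.3% of long domains and 34.6% of shorter peaks have another long domain. Any other H3K27me3 peak lies within 10 kb of 61.8% and 62.5%. The intervals count each peak as independent.

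Linking domains over gaps of at most 50 kb left 824 domains (54.7%) alone and put 402 into 201 pairs. The other 281 domains (18.6%) formed 79 runs of 3 to 7 domains, with a median span of 68.4 kb, of which domains covered a median of 28.5%. In 19 of the 79 runs no H3K9me2 peak lay between the domains. In the other runs at least 1 H3K9me2 peak lay between the domains without touching them.

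The runs with the most domains had 7 each. At chr5:6263261-6358101, 7 domains covered 38.2 kb of 94.8 kb (40.3%), with 2 further H3K27me3 peaks and 1 H3K9me2 peak among them. The last 2 domains of this run, 6345938 to 6352645 (6708 bp, 241 reads per kb) and 6352693 to 6358101 (5409 bp, 213 reads per kb), were separated by less than 50 bp. Its other 5 domains ran from 132 to 315 reads per kb, the lowest and the highest being direct neighbours, at 6294966 to 6299668 and 6287976 to 6293561. At chr10:10661983-10789831, 7 domains of 4070 to 7242 bp covered 36.4 kb of 128 kb (28.4%), with 5 H3K9me2 peaks in the run. Their densities ran from 162 to 266 reads per kb. The first of these runs was therefore the more compact and the more uneven.

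The most compact of the 5 largest runs lay at chr6:7304147-7374293. Its 6 domains covered 36.6 kb of 70.1 kb (52.2%), with no other H3K27me3 peak and no H3K9me2 peak between them. They ran from 4263 to 7917 bp in length and from 148 to 285 reads per kb. At chr7:20364203-20488780, 6 domains covered 35.5 kb of 125 kb, among them the longest domain of the chromosome, with 5 H3K9me2 peaks in the run. At chr4:13228397-13395844, 6 domains covered 35.3 kb of 167 kb (21.1%), with 4 other H3K27me3 peaks and 7 H3K9me2 peaks. Domains of 1 run thus differed in density in all 5 runs, most widely in that on chromosome 5.

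The rule left out peaks that met H3K9me2, but domains were not remote from that mark. The nearest H3K9me2 peak lay at a median of 10055 bp from a long domain (quartiles 2792 and 25319 bp), against 11950 bp for shorter peaks and 10659 bp for peaks of 2 to 4 kb, which were selected in the same way. The ratio of these medians was 0.84 against shorter peaks (interval 0.75 to 0.98) and 0.94 against peaks of 2 to 4 kb (0.81 to 1.13), so that domains were not separated from the peaks nearest in length. With H3K9me2 peaks of a fold of at least 3 alone, the ratio against shorter peaks was 0.91 (0.80 to 1.05), an interval that takes in 1. Within 1 kb, 178 domains (11.8%, interval 10.3 to 13.5%) had an H3K9me2 peak, compared with 737 shorter peaks (6.42%, 5.99 to 6.89%) and 250 peaks of 2 to 4 kb (7.95%, 7.06 to 8.95%). Domains at chr11:1264868-1273749 (274 bp away), at chr10:18201108-18209770 (394 bp) and at chr12:19777775-19786368 (210 bp) were examples among the longest. Within 10 kb the shares were nearer to each other, at 49.9% of domains, 45.0% of shorter peaks and 48.0% of peaks of 2 to 4 kb. No share over all H3K27me3 peaks was computed for nearness to H3K9me2. Since the marks were mapped in different varieties, a difference of variety and a difference of mark cannot be told apart at such borders.

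At the scale of 1 Mb windows, the 92 windows with the least H3K9me2 (1.78 to 5.73% cover) had 4.36 domains per Mb and the 92 windows with the most (9.76 to 17.1%) had 3.24 per Mb. The sets of 92 windows between them had 4.32 and 4.08 domains per Mb. Shorter peaks stood at 35.2 per Mb where H3K9me2 was least and 23.9 where it was most. Of the H3K27me3 peaks that met no H3K9me2 peak, domains therefore made up 11% where H3K9me2 was least and 11.9% where it was most. Of the 21 windows without a domain, 13 were among the 92 with the most H3K9me2. The Spearman coefficient between H3K9me2 cover and the number per window was -0.17 for domains and -0.42 for shorter peaks.

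The lists are those the authors name 24-nt, and 98.9% of positions in osdrm2 and 99.2% in Cr-DJ span 24 bases, with all listed positions counted. They hold only positions with at least 4 reads, so a position that is absent is unlisted and not shown to be empty. The osdrm2 list had 155764 reads at 20576 positions and the Cr-DJ list 106418 reads at 11243 positions. A domain with no listed position was the usual case. In osdrm2, 385 of 1507 domains (25.5%, interval 23.4 to 27.8%) held a listed position, and in Cr-DJ 326 domains (21.6%, 19.6 to 23.8%) did. Over all H3K27me3 peaks, most of them shorter, the shares were 7.84% in osdrm2 and 7% in Cr-DJ. Because a longer peak has more room for a position, shares were set aside in favour of positions per Mb.

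Per Mb, domains held more positions than shorter peaks in both lists. In osdrm2 there were 564 positions in domains, or 67.4 per Mb (exact Poisson 95% interval 62.0 to 73.3), against 44.2 per Mb in shorter peaks (41.2 to 47.3) and 57.0 in peaks of 2 to 4 kb (52.1 to 62.2). In Cr-DJ there were 459 positions, or 54.9 per Mb (50 to 60.2), against 41.9 in shorter peaks (39.0 to 45.0) and 46.4 in peaks of 2 to 4 kb (42.0 to 51.1). The ratio of long domains to shorter peaks was 1.53 in osdrm2 and 1.31 in Cr-DJ, and against peaks of 2 to 4 kb it was 1.18 in both. The difference was thus smaller against the peaks nearest in length. In a fixed window of 1 kb around the midpoint, which was chosen after seeing the data, 4.18% of domains held an osdrm2 position and 3.58% a Cr-DJ position, against 2.64% and 2.47% of shorter peaks of at least 1 kb. The intervals of the fixed window (3.28 to 5.31% and 2.31 to 3.01% in osdrm2, 2.76 to 4.65% and 2.15 to 2.82% in Cr-DJ) overlapped in Cr-DJ and not in osdrm2. Peaks of 2 to 4 kb lay between in this window, at 3.12% in osdrm2 and 3.31% in Cr-DJ, with intervals that overlapped those of the domains.

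**Figure D4:**
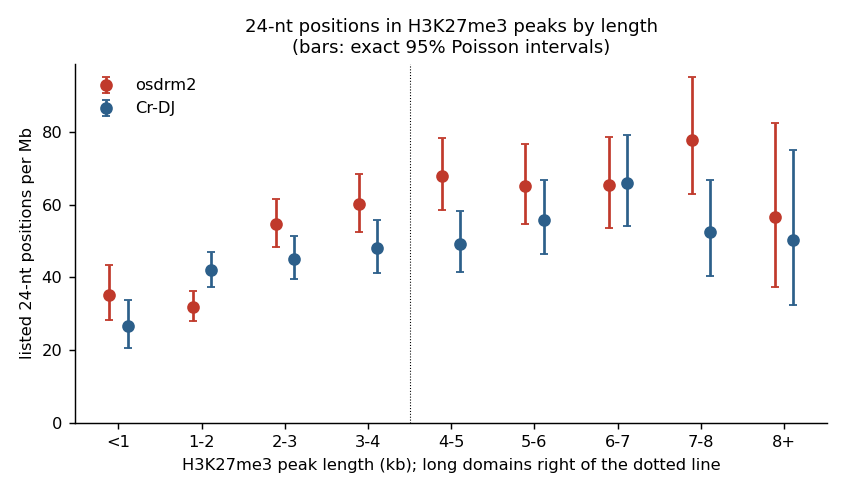
Listed 24-nt positions per Mb (vertical axis) in H3K27me3 peaks without H3K9me2 by peak length in kb (horizontal axis), for osdrm2 (red) and Cr-DJ (blue), with exact Poisson 95% intervals. From 4 to 5 kb on, the classes lie between 56.7 and 77.7 per Mb in osdrm2 and between 49.3 and 65.9 in Cr-DJ, with overlapping intervals within each list.

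Among the long domains themselves, the length classes did not separate in their density of positions. In osdrm2 the classes from 4 to 5 kb up to 8 kb or more held 68.0, 65.1, 65.3, 77.7 and 56.7 positions per Mb, and in Cr-DJ 49.3, 55.9, 65.9, 52.4 and 50.4. The intervals of these classes overlapped within each list. The density of H3K27me3 reads was also alike in domains with and without a position. With an osdrm2 position the median was 233 reads per kb, and without one 230. With a Cr-DJ position it was 240, and without one 228. Domains with a Cr-DJ position lay farther from H3K9me2, at a median gap of 13579 bp, against 9616 bp for domains without one. For osdrm2 the gaps were 10032 and 10078 bp. These medians have no interval, and shorter peaks were not split in this way, so the difference is not shown to be particular to domains.

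The lists differed in how domains compared with sequence outside all peaks. In osdrm2 the outside had 56.3 positions per Mb, 17865 in all, so that domains stood at 1.20 times that density (interval 1.10 to 1.30). In Cr-DJ the outside had 30.8 per Mb, 9771 in all, and domains stood at 1.78 times that density (1.62 to 1.96). H3K9me2 peaks had 43.9 positions per Mb in osdrm2 and 7.06 in Cr-DJ. The labels and headers do not state how reads that map to several places were handled.

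Reads in domains amounted to 3752 in osdrm2 (2.41% of the list) and 3529 in Cr-DJ (3.32%). Scaled to the total of each list, osdrm2 stood at 0.73 of Cr-DJ (interval 0.69 to 0.76) in domains, at 0.75 in peaks of 2 to 4 kb, at 0.62 in all shorter peaks and at 1.00 outside all peaks. As listed reads, without scaling, the ratio in domains was 1.06 (1.02 to 1.11). The direction in domains thus depends on the scaling, and the depth of the libraries is unknown. Both intervals count each read as independent, although the reads lay at only 564 osdrm2 and 459 Cr-DJ positions of at least 4 reads each. They are therefore too narrow. The ratio in domains was lower than outside all peaks, where it was 1.46 for listed reads. Scaling by the list totals changes both ratios by the same factor, so it cannot alter this order. A ratio of osdrm2 to Cr-DJ from 1 library each does not separate genotype from library.

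Positions were also counted by their distance from the edge of a domain. In osdrm2, positions were densest just outside the edge, with 101 per Mb in the first 1 kb (interval 90.0 to 114), against 79.4 at 1 to 2 kb and 69.9 at 2 to 5 kb. Inside, they numbered 81.6 per Mb in the outer 1 kb and 58.5 in the core, which is all sequence over 1 kb from an edge (52.2 to 65.4). In Cr-DJ the values were 42.9 per Mb in the first 1 kb outside (35.7 to 51.3), 35.3 at 1 to 2 kb and 35.0 at 2 to 5 kb, against 56.7 in the outer 1 kb inside and 53.7 in the core (47.6 to 60.2). The 500 bp next to the edge held as many Cr-DJ positions outside (52.8 per Mb) as inside (53.1 per Mb). In reads per Mb, the Cr-DJ core (398) was not above the first 1 kb outside (407). Flanks that lie in another peak of either mark were left out.

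Expressed within each list, the core held 0.58 times as many positions per Mb as the first 1 kb outside in osdrm2 (interval 0.49 to 0.68) and 1.25 times as many in Cr-DJ (1.01 to 1.56). The osdrm2 ratio was 0.52 among positions with at least 6 reads and 0.48 among those with at least 10. The Cr-DJ ratio turned to 0.78 (0.50 to 1.23) at 10 reads or more, where only 36 positions outside and 53 in the core remained. The lower density of osdrm2 positions in the core was thus kept at each read minimum, whereas the surplus of the Cr-DJ core over the first 1 kb outside was not. Joining positions within 100 bp gave 0.55 (0.46 to 0.66) in osdrm2 and 1.23 (0.97 to 1.58) in Cr-DJ. Against the flank at 2 to 5 kb, the core stood at 0.84 (0.72 to 0.97) in osdrm2 and 1.53 (1.29 to 1.83) in Cr-DJ. Among osdrm2 positions with at least 6 reads it stood at 0.67 (0.52 to 0.86). At 10 reads or more it stood at 0.75 (0.47 to 1.19) in osdrm2 and 1.45 (0.96 to 2.18) in Cr-DJ, and both intervals took in 1. The direct ratio of osdrm2 to Cr-DJ positions was 2.36 in the first 1 kb outside, 1.44 in the outer 1 kb inside and 1.09 in the core. At 10 reads or more it was 0.94 (0.57 to 1.55) in the first 1 kb outside and 0.58 (0.36 to 0.93) in the core. The core was lower in both cases, but at 10 reads or more the intervals overlapped. Peaks of 2 to 4 kb went the same way, with 1.83 in the first 1 kb outside and 0.87 in the core. At 10 reads or more these peaks had 0.98 and 0.44, so the lower ratio in the core was not particular to long domains. These ratios scale with the listing limit and the total of each list.

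Peaks of 2 to 4 kb had 99.0 osdrm2 positions per Mb in the first 1 kb outside, 64.3 in the outer 1 kb inside (58.2 to 70.9, against 71.7 to 92.5 at long domains) and 35.8 in their short core. Cr-DJ had 54.1, 47.7 and 41.1 in the same zones. The first 1 kb outside stood above the flank at 2 to 5 kb by a ratio of 1.45 in osdrm2 (1.25 to 1.68) and 1.23 in Cr-DJ (0.98 to 1.53) at long domains, and by 1.46 in osdrm2 (1.31 to 1.62) and 1.53 in Cr-DJ (1.32 to 1.76) at peaks of 2 to 4 kb. At 10 reads or more these ratios were 1.55 (0.98 to 2.43) and 1.85 (1.17 to 2.91) at long domains, and 1.03 (0.74 to 1.43) and 1.52 (1.06 to 2.15) at peaks of 2 to 4 kb. A higher density just outside the edge was thus particular neither to osdrm2 nor to long domains. In the core, long domains held more positions than these peaks in osdrm2 (58.5 per Mb, interval 52.2 to 65.4, against 35.8, 28.8 to 44.1), and in Cr-DJ the intervals overlapped (47.6 to 60.2 against 33.5 to 49.9). Among osdrm2 positions with at least 6 reads the core intervals overlapped too (14.9 to 22.3 against 9.48 to 19.1). At 10 reads or more they did so again (3.94 to 8.23 against 1.13 to 5.81). With positions within 100 bp joined, the osdrm2 core intervals stayed apart (43.4 to 55.5 against 26.6 to 41.4). In the outer 1 kb inside, the osdrm2 intervals of both groups overlapped at both read minimums.

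**Figure D5:**
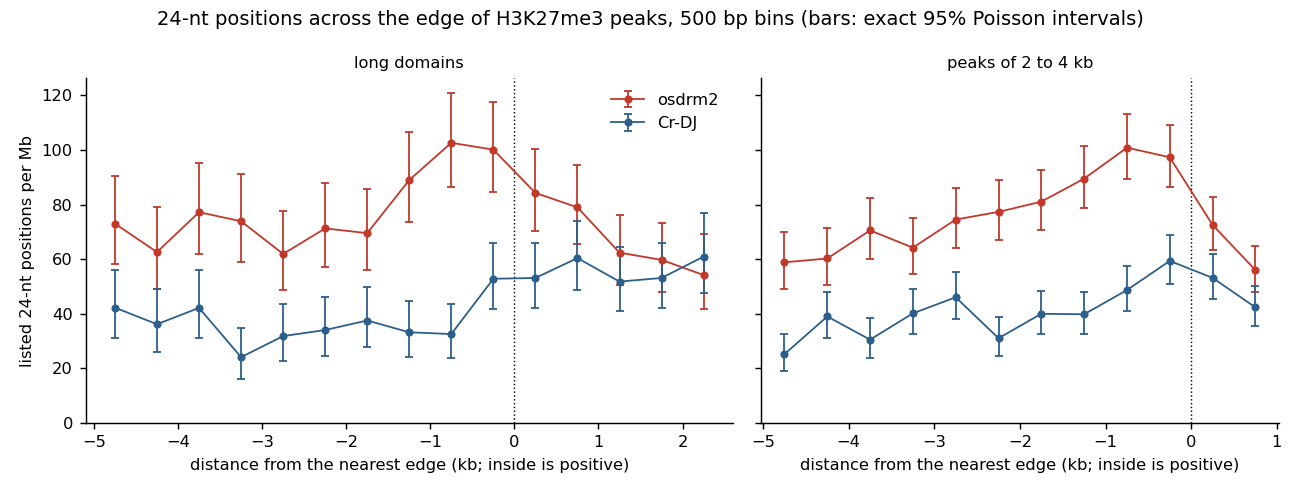
Listed 24-nt positions per Mb (vertical axis) by distance in kb from the nearest edge of a peak (horizontal axis, inside positive) in bins of 500 bp, for osdrm2 (red) and Cr-DJ (blue), with exact Poisson 95% intervals; left, long domains, right, peaks of 2 to 4 kb. At long domains the highest osdrm2 bin is 500 to 1000 bp outside the edge (103 per Mb), and 2000 to 2500 bp inside osdrm2 stands at 54.2 and Cr-DJ at 60.9 per Mb.

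Of the 1507 domains, 132 held a position in both lists, 253 in that of osdrm2 alone, 194 in that of Cr-DJ alone and 928 in neither. The 132 domains in both lists were 34.3% of those in the osdrm2 list and 40.5% of those in the Cr-DJ list, against 26.1% and 27.6% for shorter peaks, which have less room for a position, and 27.9% and 32.8% for peaks of 2 to 4 kb. Of the 564 osdrm2 positions in domains, 91 (16.1%, interval 13.3 to 19.4%) overlapped a Cr-DJ position, against 19.5% in shorter peaks, 20.2% in peaks of 2 to 4 kb and 17.4% outside all peaks. Of the 459 Cr-DJ positions, 88 (19.2%, 15.8 to 23%) overlapped an osdrm2 position, against 21.2% in shorter peaks, 23.8% in peaks of 2 to 4 kb and 27.8% outside all peaks (26.9 to 28.7%). The most abundant position in a domain had 58 reads in osdrm2 and 75 in Cr-DJ. The median position in domains had 5 reads in each list, as over the whole lists. At least 10 reads were found at 66 osdrm2 positions (11.7%) and 89 Cr-DJ positions (19.4%) in domains, near the 12.5% and 20.2% of the whole lists.

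The domains with the most osdrm2 reads were also listed in Cr-DJ. The domain at chr3:25179718-25186723 had 73 osdrm2 reads at 5 positions and 38 Cr-DJ reads at 3 positions. Its main osdrm2 position, 25185478 to 25185501 with 42 reads, was unlisted in Cr-DJ at those ends, whereas the position 25185647 to 25185670 had 6 reads in osdrm2 and 26 in Cr-DJ. The domain at chr2:18641203-18645361 had 60 and 33 reads, of which 51 and 25 lay at the single position 18642364 to 18642387. Domains at chr1:21664681-21671168 (58 reads in osdrm2 and 28 in Cr-DJ), at chr2:8589449-8595922 (49 and 11) and at chr6:30835787-30840926 (47 and 20) had 1 position each, the same in both lists. In 4 of these 5 domains the most abundant position was therefore identical in both genotypes.

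The domains with the most Cr-DJ reads were often unlisted in osdrm2. At chr1:610454-616667, osdrm2 had no listed position, while Cr-DJ had 116 reads at 6 overlapping positions between 611216 and 611254, with up to 41 reads at 1 of them. At chr1:10486424-10491297, osdrm2 had none and Cr-DJ had 79 reads, 75 of them at 10488774 to 10488797. At chr1:25981200-25987985, osdrm2 had none and Cr-DJ had 68 reads at 5 positions. At chr6:26059987-26067589 osdrm2 had 11 reads and Cr-DJ 89, and at chr10:20854238-20860964 osdrm2 had 22 reads and Cr-DJ 71. At the position 20860519 to 20860542 of the last domain, the reads were 18 in osdrm2 and 71 in Cr-DJ. These domains were picked for their reads in 1 list, so a lower value in the other list is partly fixed by the choice.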

How the data were processed

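Peaks were called by the authors with MACS 1.4.2 on 1 library per mark, without a control and with a p-value limit of 1e-05, per the file headers, which also state at most 1 read kept per position. Read counts per peak, the fold enrichment (a ratio) and the peak score are the authors' deposited values. The H3K27me3 library had 19709518 reads and that of H3K9me2 19160896, per the file headers. For H3K9me2 the series' list of files names Cr-DJ, but the sample labels and the header name ZH11, which was used here. Small RNA files list 1 alignment per line, and identical lines were counted as reads of 1 position, whatever the strand. The submitters' processing notes name Bowtie, Bowtie2 (2.1.0), FastQC and Trimmomatic without roles. The gene expression table was not used, since its loci have no coordinates.

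Overlaps count from 1 bp, gaps are bases between edges, and chromosome ends are the largest coordinates in the files. Analysis used Python 3.11.15, numpy, pandas and scipy, and the interval calculations were tested on simulated data. Regions were named by a rule on length, density, fold, runs, windows and 24-nt reads, and the members and all lists were chosen with earlier results of these data known. Alternatives covered length limits, gaps, H3K9me2 overlap, folds and read minimums.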

Additional observations from a re-analysis of the deposited data

How the results depend on the processing

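No paired analysis was possible because no result comes from a test and each assay used here had 1 library per genotype. The number of domains was 2594 at a length limit of 3000 bp, 886 at 5000 bp and 949 at a fold of at least 3, and within 1.5 times of 1507 under the other 3 alternatives (1329 to 1744). The surplus of long domains over shorter peaks in median reads per kb (90.4) was 47.4 against peaks of 2 to 4 kb, 81.9 at a limit of 3000 bp and 101 at 5000 bp, and the difference in median fold (-0.95) was -0.86 against peaks of 2 to 4 kb. The share with another long domain within 50 kb was 33.3% at a limit of 5000 bp, where domains are fewer, and by construction 24.9% within 20 kb and 66.2% within 100 kb. The share with any other peak within 10 kb was likewise 39.0% within 5 kb and 83.6% within 20 kb. The ratio of osdrm2 positions per Mb in domains to shorter peaks was 1.18 against peaks of 2 to 4 kb. Core over outside in osdrm2 was 0.48 at 10 reads or more. The results that reversed were osdrm2 over Cr-DJ reads in domains (1.06 without scaling to the list total) and core over outside in Cr-DJ (0.78 at 10 reads or more). The cause of these shifts was not tested. The comparison of the core with the sequence outside the edge was not among the planned results. The window around the midpoint and all alternatives across the edge were chosen after seeing the data. Lists of 24-nt reads start at 4 reads, so weaker positions are out of reach in both genotypes.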
